A study of Arabidopsis thaliana with 34 samples.

Results

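F1 hybrid seedlings of the Arabidopsis thaliana accessions C24 and Ler were compared with F1 hybrid seedlings of Col and Ler, half-sib families that share Ler. The members were 8 of the series' 34 libraries, taken by cross name and replicate letter: letters A and B of the crosses C24xLer and LerxC24 (the C24/Ler hybrids, n = 4) and letters A and B of ColxLer and LerxCol (the Col/Ler hybrids, n = 4). The inbred accessions C24 and Col (n = 2 each) gave the parental difference against which the hybrid difference was set, and inbred Ler (n = 2) is given beside it. No group carried a transgene or received a treatment named in the labels, and all plants were 15 days old and grown on agar plates. The labels do not say which name in a cross is the mother. Each library was made from whole aerial tissue of a pool of 5 to 15 seedlings of 1 genotype, and the series' design text calls the pools biological replicates.

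An F1 hybrid holds 1 copy of each nuclear gene from each inbred parent. Both families hold a Ler copy, so the families differ in the other copy, which comes from C24 or from Col. Where each copy is expressed as it is in its own inbred line, the Ler part cancels and the difference between the families is 0.5 times the difference between inbred C24 and inbred Col on a linear scale, called the half-inbred difference here. The accessions are known to differ in the control of flowering, in the glucosinolate compounds they store against herbivores, and in their sets of immune receptor genes, and these groups are described first.

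The 8 libraries held 72386257 to 86704381 counts each. Levels are given as CPM, counts set relative to the scaled library total. Genes with signal in 1 accession alone served to check the cross names. The median level of 15 genes of C24 was 33.3% to 48.4% of the inbred level in the C24/Ler hybrids and 1.1% to 1.49% in the Col/Ler hybrids, and that of 22 genes of Col was 43.4% to 53.9% in the Col/Ler hybrids and 0.71% to 1.89% in the C24/Ler hybrids. Library LerxC24 B stood apart: its 9 genes of Ler had a median of 75.5% of the Ler level, against 43.2% to 54.8% in the other 7 libraries, and its 15 genes of C24 had the lowest share, 33.3%. Calls lost without it are named beside most genes and lists below. The summed level of 35 photosynthesis genes was 145900 to 158200 CPM in the C24/Ler hybrids and 134300 to 173400 CPM in the Col/Ler hybrids. The summed level of 12 root markers was 118.8 to 195.5 CPM against 110.7 to 131.9 CPM, that of 8 floral organ markers 20.17 to 21.52 against 20.35 to 21.24 CPM, that of 5 meristem markers 9.732 to 10.55 against 4.857 to 10.8 CPM and that of 5 seed markers 11.33 to 12.67 against 12.19 to 13.08 CPM, with no marker at 0 in any library. Of these markers, SEP3 was the only one called. In whole tissue, fewer cells of a type and less RNA per cell cannot be told apart.

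The C24/Ler hybrids differed from the Col/Ler hybrids at 3161 of 29777 genes tested, 10.6% (edgeR quasi-likelihood test with the replicate letter as block, Benjamini-Hochberg adjusted p below 0.05). Of these, 1322 genes (4.44%) were higher and 1839 (6.18%) lower in the C24/Ler hybrids. The median size of a called difference was 0.475 on the log2 scale, and 584 genes, 246 higher and 338 lower, differed at least 2-fold. In 3063 of the called genes (96.9%) the difference had 1 sign in all 4 pairs matched for the letter and the place of Ler in the cross name. These genes were chosen by a test on the same libraries and the share over all genes was not computed, so this is a description only. The 4 libraries of one family did not overlap those of the other at 2246 of the called genes (71.1%), and at 11.9% of all genes tested (5.04% with the C24/Ler hybrids higher and 6.89% with them lower). Without library LerxC24 B 2263 genes were called, 942 higher and 1321 lower, and without the letter as block 1692 genes, 611 higher and 1081 lower. Of 1952 pseudogenes, 89 were called higher and 209 lower (15.3%), and of 26010 protein-coding genes 10.3% were called.

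Flowering repressor FLC was high in one family and low in the other, and several flowering promoters were lower where it was high. FLC, the MADS-box repressor that holds back flowering by keeping SOC1 and FT low, stood at 35.1, 31.5, 32.3 and 27.4 CPM in C24xLer A and B and LerxC24 A and B. In ColxLer A and B and LerxCol A and B it stood at 0.903, 1.05, 0.93 and 0.859 CPM. All 4 C24/Ler libraries thus lay far above all 4 Col/Ler libraries, with means of 31.6 ± 3.19 and 0.935 ± 0.081 CPM (SD, n = 4). The log2 difference was 5.07 ± 0.117 (SE, adjusted p = 9.82e-12). Inbred C24 had 68.2 CPM, Col 1.08 and Ler 0.688, so the family difference of 30.6 CPM lay beside the half-inbred difference, 33.5 CPM. FLC overlaps the annotated locus AT5G01675, and because the use of strand in counting is not given, their reads cannot be told apart.

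Of 15 flowering repressors, 3 were higher (FLC, SNZ, TOE1) and 1 lower (FRI), with a list median of 0.109 on the log2 scale against 0.005 over all genes tested. The calls were 26.7% of the list, against 10.6% of all genes tested. SNZ, an AP2-type repressor, had 27.5, 12.5, 21.7 and 10.4 CPM in the C24/Ler libraries and 14.3, 7.39, 11.4 and 7.07 CPM in the Col/Ler libraries, in the order given above. Letter A was above letter B in all 4 crosses, the families overlapped over all libraries, and within each letter the C24/Ler hybrids were higher (0.79 ± 0.082, adjusted p = 2.3e-05). Without the letter as block the adjusted p of SNZ was 0.479. TOE1, a close relative, was higher by 0.26 and FRI, which raises FLC where it is functional, was lower by 0.26 on the log2 scale. Of 12 leave-one-out fits, each without 1 of the 8 hybrid or 4 inbred C24 and Col libraries, TOE1 lost its call in 7 (adjusted p up to 0.122) and FRI in 5 (up to 0.105), and neither was called without LerxC24 B or without the letter block (0.37 and 0.085). The FLC relatives MAF2 to MAF5 and SVP were not called, with log2 differences from -0.12 to 0.11.

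Of 22 flowering promoters none was higher and 6 were lower in the C24/Ler hybrids (SOC1, FUL, FD, SPL4, SPL5 and SPL15), with a list median of -0.123. The calls were 27.3% of the list, against 10.6% of all genes tested. SOC1, the MADS-box integrator that FLC represses, had 23.59, 39.2, 39.9 and 52.0 CPM in the C24/Ler hybrids and 85.7, 88.0, 92.2 and 85.7 CPM in the Col/Ler hybrids. The families did not overlap (means 38.7 ± 11.7 and 87.9 ± 3.08 CPM, log2 -1.23 ± 0.119, adjusted p = 4.13e-05), and the highest C24/Ler library was LerxC24 B. FUL, a MADS-box gene that acts with SOC1, had 1.1, 1.59, 1.49 and 2.26 CPM against 4.86, 3.66, 4.01 and 3.03 CPM (log2 -1.27 ± 0.178, adjusted p = 0.000429). These libraries did not overlap either, and the inbreds ranked alike, C24 at 0.978 and Col at 4.75 CPM.

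SPL4 and SPL5, squamosa-promoter-binding factors that rise as plants reach flowering age, differed by -1.09 (adjusted p = 2e-05) and -0.69 (0.000521) on the log2 scale. SPL4 had 2.71, 4.24, 4.42 and 5.75 CPM in the C24/Ler hybrids and 7.0, 11.9, 6.17 and 11.7 CPM in the Col/Ler hybrids, with letter B above letter A in every cross. Its families did not overlap, while those of SPL5 did. Without the letter as block the adjusted p was 0.0968 for SPL4 and 0.298 for SPL5, and both loci overlap another annotated gene. SPL15 (-0.54, adjusted p = 0.0152) lost its call without C24xLer A, without ColxLer B and without LerxC24 A (up to 0.0756), and its adjusted p without the letter block was 0.0545. FD, the partner of the FT protein, was lower by 0.22 (adjusted p = 0.0353). FD was not called without the letter block, where the 2 lower calls were SOC1 and FUL, and its leave-one-out fits are not given here. FT itself, LFY and CO, which complete the pathway from day length to floral identity, were not called (-0.06, -0.00 and 0.17). Without LerxC24 B the same list counts were 2 higher and 0 lower for the repressors and 0 higher and 6 lower for the promoters. Without the letter block they were 1 and 0, and 0 and 2.

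**Figure D1:**
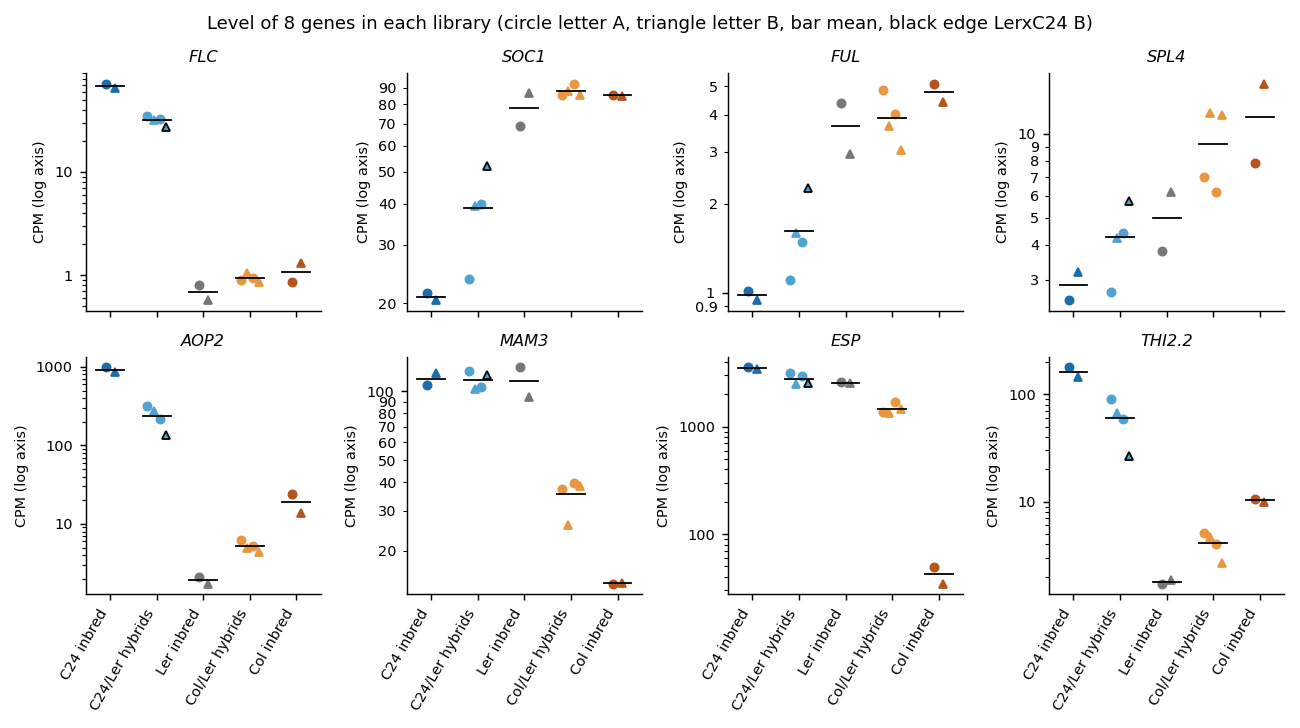
Level in CPM on a log axis of 8 genes in each library of inbred C24, the C24/Ler hybrids, inbred Ler, the Col/Ler hybrids and inbred Col. Circles are letter A, triangles letter B, bars the group mean, and the black edge marks LerxC24 B. FLC, AOP2 and THI2.2 are higher in all 4 C24/Ler libraries than in all 4 Col/Ler libraries, and SOC1, FUL and SPL4 lower.

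Aliphatic glucosinolate synthesis was the list with the largest share of called members. Glucosinolates are sulphur compounds of the cabbage family, and the aliphatic ones are built from methionine in 3 stages: chain elongation, formation of the core, and modification of the side chain. Of 26 genes, 19 were higher and 2 lower in the C24/Ler hybrids (80.8% called, against 10.6% of all genes tested), with a median of 0.60 on the log2 scale. Between the inbreds, C24 was higher than Col at 18 of these genes and lower at 1. The count was 17 to 19 higher and 1 to 2 lower in the leave-one-out fits, and 7 higher and 0 lower without the letter as block. With C24/Ler libraries of other letters and no block it was 8 higher and 2 lower. With all libraries except letter C and no block it was 6 higher and 0 lower.

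In chain elongation, BCAT4, which removes the amino group of methionine in the first step, had 270, 199, 209 and 180 CPM in the C24/Ler hybrids and 133, 67.8, 93.9 and 62.7 CPM in the Col/Ler hybrids. The families did not overlap (means 215 ± 38.8 and 89.4 ± 32.3 CPM, log2 1.31 ± 0.104, adjusted p = 4.04e-06). BCAT4 overlaps the annotated locus AT3G19700. MAM3, a methylthioalkylmalate synthase that makes long chains, had 123, 102, 105 and 118 CPM against 37.5, 26.0, 39.6 and 38.5 CPM (log2 1.68 ± 0.113, adjusted p = 1.6e-06). Its levels in inbred C24 and Ler were close to each other, 114 and 111 CPM, and Col had 14.5 CPM. MAM1, the neighbouring copy that makes shorter chains, had 353, 344, 276 and 229 CPM against 199, 130, 156 and 125 CPM (log2 0.97 ± 0.105, adjusted p = 6.09e-05), and reads that match both copies make both values uncertain. The isomerase subunits IPMI1 and IPMI2 differed by 1.17 (adjusted p = 4.5e-07) and 1.11 (1.13e-05), and the dehydrogenase IMD1 by 0.75 (1.4e-05). For IPMI1, whose letter A was above letter B in every cross, the adjusted p without the letter block was 0.243.

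In core formation, CYP79F1, which turns the elongated amino acid into an aldoxime, had 144, 62.2, 107 and 52.4 CPM in the C24/Ler hybrids and 65.4, 24.8, 51.1 and 37.3 CPM in the Col/Ler hybrids. Letter A was above letter B throughout, and the families overlapped over all libraries but not within a letter (0.98 ± 0.162, adjusted p = 0.00315). CYP83A1, the next enzyme, was higher by 0.61 (adjusted p = 0.0001). Of the 3 MYB regulators of the pathway, MYB76 was higher (0.98, adjusted p = 0.00162), at 1.72 to 4.46 CPM against 1.12 to 2.81 CPM. MYB28, the main regulator and the most abundant of them, was at 113 to 135 CPM against 104 to 142 CPM (0.08, adjusted p = 0.657), and MYB29 at 8.34 to 20.6 against 10.2 to 22.9 CPM (-0.08, 0.822). The families overlapped at both, and neither was called in any of the 12 leave-one-out fits. With C24/Ler libraries of other letters and no block, MYB28 was called higher (0.54, adjusted p = 0.0458). Without the letter block the adjusted p was 0.435 for CYP79F1, 0.327 for CYP83A1 and 0.248 for MYB76.

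At the side chain, AOP2, the dioxygenase that makes alkenyl glucosinolates, showed the largest difference of the list. It had 319, 277, 219 and 134 CPM in the C24/Ler hybrids and 6.17, 4.99, 5.16 and 4.35 CPM in the Col/Ler hybrids, with the lowest C24/Ler value in LerxC24 B. The families did not overlap (means 237 ± 80.1 and 5.17 ± 0.753 CPM, log2 5.46 ± 0.114, adjusted p = 4.46e-11). The reference annotation, which is of Col, lists AOP2 as a transcribed pseudogene. AOP3, the neighbouring copy that makes hydroxyalkyl glucosinolates, was near 0 in C24 and Col (1.12 and 1.32 CPM) and at 164 CPM in Ler. It had 178, 113, 145 and 118 CPM in the C24/Ler hybrids and 86.6, 43.7, 78.7 and 52.1 CPM in the Col/Ler hybrids, and the families did not overlap (log2 1.11 ± 0.153, adjusted p = 0.000945). Reads that match both AOP copies make both values uncertain. GS-OX2, a flavin monooxygenase that oxidises the side chain, moved the other way, at 10.6 to 18.3 against 15.1 to 27.4 CPM (-0.46, adjusted p = 0.000156, and 0.603 without the letter block). The other 4 members of that family gave 1 higher call (GS-OX1), 1 lower call (GS-OX4) and no call for GS-OX3 and GS-OX5.

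Glucosinolate breakdown genes were called at 7 of 11 tested members, 5 higher and 2 lower, with a list median of 0.305. The calls were 63.6% of the list, against 10.6% of all genes tested. ESM1 was not analysed here. ESP, the specifier protein that turns breakdown toward nitriles and epithionitriles, had 3167, 2518, 2962 and 2550 CPM in the C24/Ler hybrids and 1376, 1353, 1691 and 1455 CPM in the Col/Ler hybrids (log2 0.93 ± 0.08, adjusted p = 4.22e-06). The families did not overlap, and inbred Col had 42.1 CPM against 3496 in C24 and 2580 in Ler. The family difference of 1330 CPM was the largest in CPM of all genes tested. The nitrile specifiers NSP1 and NSP4 were higher by 0.87 (adjusted p = 3.54e-08) and 0.90 (2.69e-06). The myrosinases that start breakdown were higher by less: TGG1 at 3426 to 3900 against 2674 to 3119 CPM (0.38, adjusted p = 0.00143) and TGG2 at 492 to 791 against 466 to 514 CPM (0.37, 0.00549). TGG2 was at 7.45 CPM in inbred Ler and at 1630 CPM in C24 and 997 CPM in Col, and its families overlapped. MBP1, a myrosinase-binding protein, was lower, at 11.6 to 37.5 against 35.5 to 46.3 CPM (-0.99, adjusted p = 0.00767), with overlap between the families. Indole glucosinolate synthesis gave 2 higher and 0 lower calls of 12, or 16.7%. They were SUR1, which also serves the aliphatic branch, and CYP81F4, whose counts are identical to those of AT4G37409. CYP81F4 was not called in 5 of the 12 leave-one-out fits, LerxC24 B among them (adjusted p up to 0.0611), and SUR1 not without the letter block (0.355).

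**Figure D2:**
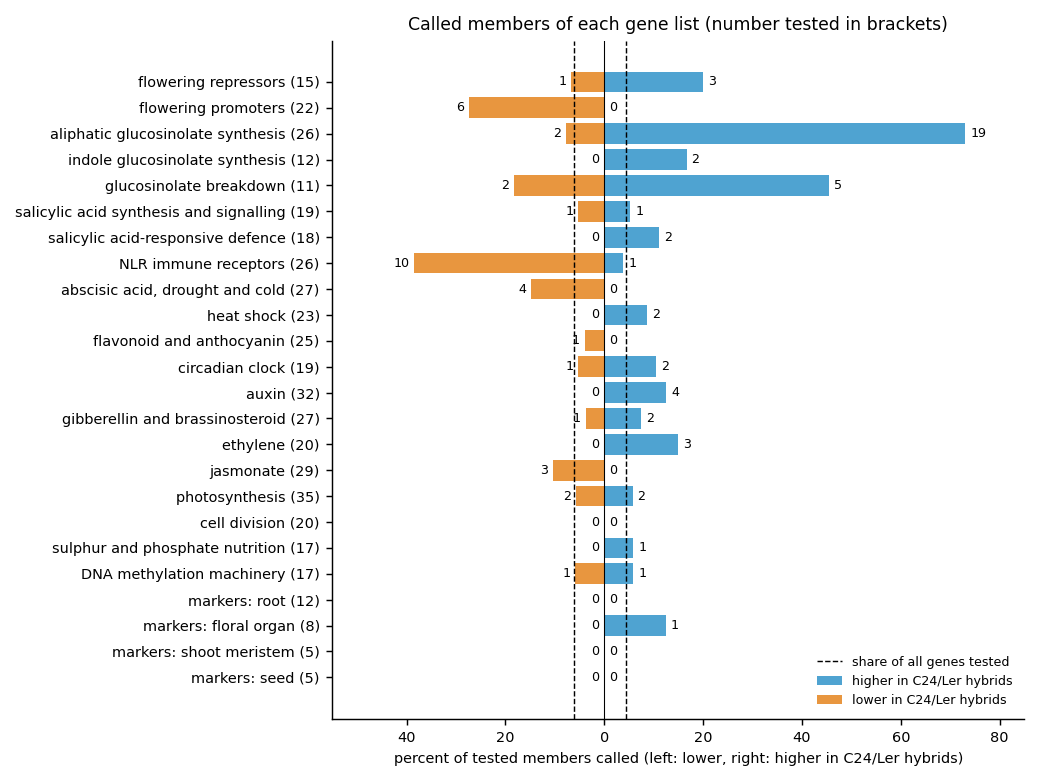
Percent of the tested members of each gene list that were called higher (right) or lower (left) in the C24/Ler hybrids, with the number called at the bar and the number tested in brackets. Dashed lines give the share of all genes tested, 4.44% higher and 6.18% lower, and aliphatic glucosinolate synthesis reaches 19 higher calls of 26.

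NLR immune receptors, the intracellular proteins that detect pathogen effectors, gave 1 higher and 10 lower calls of 26. The calls were 42.3% of the list, against 10.6% of all genes tested (4.44% higher and 6.18% lower). The list median was -0.143, against 0.005 over all genes tested. RLM3, a TIR-domain protein, had 86.0, 110, 132 and 143 CPM in the C24/Ler hybrids and 211, 343, 245 and 335 CPM in the Col/Ler hybrids. The families did not overlap (log2 -1.26 ± 0.107, adjusted p = 8.6e-06). RPM1, a receptor for bacterial effectors, had 12.3, 12.9, 14.7 and 15.0 CPM against 21.6, 23.3, 23.3 and 22.4 CPM, again without overlap (-0.73 ± 0.087, adjusted p = 9.47e-05). Inbred C24 had 4.43 CPM of RPM1, Col 20.3 and Ler 17.8.

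Members of the RPP5 cluster on chromosome 4 went both ways. RPP4 and RPP5 were lower by 0.62 (adjusted p = 0.00675) and 0.54 (0.000206), and RPP8, at another locus, by 0.51 (0.000692). SNC1 of the RPP5 cluster was the only member called higher, at 204, 166, 186 and 128 CPM against 141, 96.9, 131 and 98.0 CPM (0.55, adjusted p = 0.000231, and 0.0841 without the letter block). Its families overlapped. These genes are copies of each other that vary in number and sequence between accessions, so counts against 1 reference are uncertain for all of them. Without LerxC24 B the list gave 1 higher and 7 lower calls, and without the letter block 0 and 9. The genes of the salicylic acid pathway that acts after such receptors gave 1 higher call (NPR3) and 1 lower (NPR1) of 19. This called share of 10.5% is near the 10.6% of all genes tested. NPR3, a salicylic acid receptor that restrains defence, lost its call without C24xLer B, ColxLer A, LerxC24 A or LerxCol B (adjusted p up to 0.0688), and its adjusted p without the letter block was 0.0532.

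Salicylic acid-responsive defence genes had a positive median of 0.578 with 2 higher and 0 lower calls of 18, a called share of 11.1% that is near the 10.6% of all genes tested. The list gave 6 higher calls by DESeq2, 5 with the 8 hybrid libraries alone, 3 without C24 A, C24 B or the letter block, 1 without LerxC24 B, C24xLer A, LerxC24 A, LerxCol A or LerxCol B, and 0 without ColxLer A. The best known of them, PR1, illustrates the spread: 7.68, 2.13, 25.8 and 20.07 CPM in the C24/Ler hybrids and 0.382, 0.714, 0.657 and 0.951 CPM in the Col/Ler hybrids. Every C24/Ler library was above every Col/Ler library, yet the difference did not pass the test (3.86, adjusted p = 0.191). The 2 inbred Ler libraries alone ran from 0.519 to 144 CPM. The calls were WRKY62, a transcription factor at 0.69 to 0.949 against 0.255 to 0.426 CPM (1.38, adjusted p = 0.0114), and AIG1, a gene induced by avirulent bacteria, at 2.65 to 5.06 against 0.7 to 1.33 CPM (1.89, 0.0141). AIG1 lost its call without C24xLer A, ColxLer A, LerxC24 B or LerxCol A (up to 0.0661), and WRKY62 without ColxLer A, LerxC24 A or LerxCol B (up to 0.0562).

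Of 27 genes of abscisic acid, drought and cold responses, 4 were lower and none higher in the C24/Ler hybrids (COR15B, RD29A, KIN1 and KIN2), 14.8% called against 10.6% of all genes tested. The list median was -0.059, and 11 of the 27 differences were positive. CBF factors raise such genes in the cold by binding the C-repeat, whose core is CCGAC. The 250 bases before the annotated start of 3 of the lower genes are shown because they differ in that core, with CCGAC or its reverse complement GTCGG in capitals (TAIR10.1 from RefSeq, all on the + strand, RD29A at chr5:21240467-21240716, KIN1 at chr5:5209467-5209716 and KIN2 at chr5:5211469-5211718).
RD29A: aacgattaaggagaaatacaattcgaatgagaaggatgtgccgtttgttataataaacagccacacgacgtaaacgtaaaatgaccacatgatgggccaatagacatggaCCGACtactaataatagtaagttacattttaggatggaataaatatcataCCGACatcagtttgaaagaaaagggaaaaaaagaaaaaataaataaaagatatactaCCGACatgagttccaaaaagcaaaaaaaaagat
KIN1: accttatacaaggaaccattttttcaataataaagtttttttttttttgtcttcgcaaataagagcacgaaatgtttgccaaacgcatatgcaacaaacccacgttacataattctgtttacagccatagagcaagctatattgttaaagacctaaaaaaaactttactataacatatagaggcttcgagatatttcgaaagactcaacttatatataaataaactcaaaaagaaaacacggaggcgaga
KIN2: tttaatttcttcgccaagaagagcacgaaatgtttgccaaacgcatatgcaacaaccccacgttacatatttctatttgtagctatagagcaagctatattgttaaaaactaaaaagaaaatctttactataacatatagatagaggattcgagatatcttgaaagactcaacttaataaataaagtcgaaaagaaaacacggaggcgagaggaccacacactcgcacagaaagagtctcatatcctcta
RD29A held the core at 3 places, and KIN1, KIN2 and COR15B held none in this window. Over 26009 protein-coding genes tested, 12% of such windows held it at least 1 time and 1.44% at least 2 times. Of the 23 list members that were not called, 9 held it. A match is a description of these letters only.

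KIN2, a small hydrophilic stress protein, had 72.7, 89.2, 109 and 106 CPM in the C24/Ler hybrids and 268, 177, 267 and 178 CPM in the Col/Ler hybrids. No libraries overlapped (means 94.1 ± 16.7 and 223 ± 52.2 CPM, log2 -1.23 ± 0.132, adjusted p = 0.000115). RD29A, a hydrophilic protein used widely as a marker of cold and drought, had 71.8, 61.1, 93.2 and 66.5 CPM against 248, 96.8, 198 and 97.8 CPM (-1.02 ± 0.155, adjusted p = 0.00176). Its families did not overlap, yet letter A was above letter B in both Col/Ler crosses, and the adjusted p without the letter block was 0.153. KIN1, the neighbouring copy of KIN2, was lower by 0.54 (adjusted p = 0.022), a call lost without ColxLer A, LerxC24 A, LerxC24 B or LerxCol A (up to 0.0937) and without the letter block (0.0941), and reads that match both copies make both uncertain. COR15B was lower by 0.32 (adjusted p = 0.0215) and was not called in 5 of the 12 leave-one-out fits, LerxC24 B among them (up to 0.113), nor without the letter block (0.185). The factors themselves were not called in the main edgeR fit. CBF1 was at 0.608 to 1.61 against 1.35 to 3.46 CPM (-1.18, adjusted p = 0.0528, and 0.00104 by DESeq2). CBF2 differed by -0.09 (0.906) and CBF3 by -0.69 (0.164, and 0.0449 by DESeq2). CBF3 was also called lower in the edgeR fits without Col A and without Col B. With the 8 hybrid libraries alone both CBF1 and CBF3 were called lower, while RD29A (adjusted p = 0.0525) and KIN1 (0.114) lost their calls. The list gave 0 higher and 7 lower calls there. COR15A, the abundant partner of COR15B, was at 278 to 397 against 303 to 502 CPM (-0.21, 0.114). Without LerxC24 B the list gave 2 lower calls and without the letter block 1.

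Jasmonate genes gave 0 higher and 3 lower calls of 29, a called share of 10.3% that is close to the 10.6% of all genes tested. With the 8 hybrid libraries alone the list gave 9 higher and 3 lower calls. VSP2, a vegetative storage protein that rises with wounding, had 129, 77.1, 203 and 157 CPM in the C24/Ler hybrids and 394, 360, 391.7 and 443 CPM in the Col/Ler hybrids, without overlap (log2 -1.57 ± 0.14, adjusted p = 2.92e-05). The hybrid difference of -255.9 CPM lay beyond the half-inbred difference, -116.8 CPM, and this departure did not pass its test (adjusted p = 0.499). ARGAH2, an arginase, had 55.7, 31.2, 77.3 and 74.1 CPM against 105, 78.2, 144 and 123 CPM (-0.95 ± 0.111, adjusted p = 0.000138). Inbred C24 was near 0 at 0.393 CPM, with Col at 87.3 and Ler at 214 CPM. JMT, which makes methyl jasmonate, was lower by 0.65 (adjusted p = 0.00112, and 0.199 without the letter block). The list median was 0.207, opposite in sign to the 3 calls, since 19 of the 29 members had a positive difference.

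In the ethylene list 3 of 20 genes were higher and none lower, 15.0% called against 10.6% of all genes tested. The list gave 0 calls without C24xLer A, ColxLer A or LerxCol A, 1 higher without ColxLer B, LerxC24 A or LerxCol B, and 2 higher and 1 lower without LerxC24 B. With the 8 hybrid libraries alone 5 were higher. ORA59, a factor that joins ethylene and jasmonate signals, was at 4.51 to 5.21 against 1.3 to 2.97 CPM (1.19, adjusted p = 0.0172), and its call was lost in 5 of the 12 leave-one-out fits (up to 0.0789). PR4, a chitin-binding defence protein, was at 16.5 to 39.8 against 9.04 to 18.02 CPM (1.11, 0.019) and was not called in 6 of them, LerxC24 B among them (up to 0.0787). In the gibberellin and brassinosteroid list 2 of 27 genes were higher and 1 lower, 11.1% called and so near the share of all genes, and without LerxC24 B 1 was higher and 1 lower. GA20OX2, an enzyme of gibberellin synthesis, had 3.92, 6.18, 3.58 and 4.66 CPM against 2.44, 2.19, 2.0 and 1.86 CPM, without overlap (1.09 ± 0.14, adjusted p = 0.000166). DWF4, a rate-limiting enzyme of brassinosteroid synthesis, was lower, at 11.5 to 16.4 against 16.9 to 23.4 CPM, also without overlap (-0.52, 0.000832, and 0.111 without the letter block). Auxin gave 4 higher and 0 lower calls of 32 (12.5%, near the share of all genes), 1 to 3 higher in the leave-one-out fits and 0 without the letter block. Among the 4, GH3.5, which joins amino acids to auxin, had the smallest adjusted p (0.44, 0.00338, and 0.113 without the letter block).

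Among other lists, 2 of 23 heat shock genes were higher, HSP101 (0.38) and MBF1C (0.30), 8.7% against 10.6% of all genes tested, and they lost their calls in 4 and 6 of the 12 leave-one-out fits (up to 0.0571 and 0.127), MBF1C also without LerxC24 B (0.0561). The list gave 0 calls without ColxLer A or LerxCol A and 4 higher without ColxLer B, and 5 with the 8 hybrid libraries alone. Of 25 flavonoid genes 1 was lower, 4.0% called and so below the share of all genes. It was DFR, the first enzyme of the late anthocyanin branch, at 15.9 to 50.4 against 44.0 to 83.0 CPM (-1.09, adjusted p = 0.00729, and 0.448 without the letter block). Of 19 clock genes (15.8% called), PRR3 and LNK1 were higher (0.49 and 0.22) and ELF4 lower (-0.38). LNK1 and ELF4 were not called in 8 and 6 of the 12 fits, and neither was called without LerxC24 B (0.142 and 0.0517), while PRR3 was not called without the letter block (0.473). Of 17 genes of DNA methylation (11.8% called, near the share of all genes), CMT2 was higher (0.23) and AGO9 lower (-0.37). CMT2 and AGO9 lost their calls in 4 and 3 of the 12 fits (up to 0.0876 and 0.0809). Of 17 genes of sulphur and phosphate nutrition (5.88% called, below the share of all genes) BGLU28 was higher. BGLU28, a beta-glucosidase that rises in sulphur shortage, was at 9.01 to 20.4 against 3.17 to 5.99 CPM (1.91, adjusted p = 0.00468), with inbred Ler at 73.0 CPM and C24 and Col at 9.99 and 5.79 CPM. None of 20 cell division genes was called in the main fit or by DESeq2, and their log2 differences ran from -0.22 to 0.20. With the 8 hybrid libraries alone 1 of them was called lower. SEP3, a floral organ identity gene, was higher at 3.21 to 3.61 against 1.72 to 2.49 CPM (0.71, 0.00443).

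Light-harvesting genes contributed some of the largest differences in CPM and went in opposite directions. LHCB1.2 and LHCB2.2, chlorophyll-binding proteins of photosystem II, differed by 1231 and 594.7 CPM, and LHCB2.1 and LHCA3 by -642.3 and -1171 CPM. On the log2 scale these were differences of 0.24, 0.31, -0.43 and -0.31. The LHCB copies are near-identical in sequence, so a shift of reads between copies cannot be told apart from a change in level. LHCB1.2 was not called in 5 of the 12 leave-one-out fits (adjusted p up to 0.129), LerxC24 B among them, and LHCA3 not without C24xLer A, ColxLer A or LerxCol A (up to 0.0646). Without the letter block neither LHCB1.2 (0.333) nor LHCB2.2 (0.0732) was called. Over the whole photosynthesis list the median was -0.004 with 2 higher and 2 lower calls of 35. This called share of 11.4% is near the 10.6% of all genes tested. UBQ10, a polyubiquitin gene, had 280, 295, 326 and 399 CPM in the C24/Ler hybrids and 490, 535, 584 and 726 CPM in the Col/Ler hybrids, without overlap (-0.84 ± 0.066, adjusted p = 1.65e-06). GSTU20, a glutathione transferase, was higher at 563 to 845 against 424 to 504 CPM (0.61, 6.8e-05).

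Outside the lists, THI2.2, a thionin of the antimicrobial peptide class, had 89.7, 66.7, 58.8 and 26.7 CPM in the C24/Ler hybrids and 5.13, 4.64, 4.04 and 2.69 CPM in the Col/Ler hybrids. The 2 families were apart and LerxC24 B was the lowest of the higher family (3.81 ± 0.158, adjusted p = 1.27e-07). HPL1, a hydroperoxide lyase that makes green leaf volatiles, was at 37.0 to 79.1 against 14.9 to 26.0 CPM (1.37, adjusted p = 0.00425, and 0.122 without the letter block). ECS1 had 21.5, 11.6, 34.7 and 22.1 CPM against 131, 97.2, 203 and 155 CPM (-2.76 ± 0.214, adjusted p = 3.92e-05), and inbred C24 was at 0.814 and 0.93 CPM. AT2G25450, annotated as a 2-oxoglutarate-dependent oxygenase, had 18.24, 16.6, 35.4 and 14.1 CPM against 141, 75.5, 136 and 80.6 CPM (-2.37 ± 0.24, adjusted p = 0.000256). Neither pair of families overlapped.

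The largest log2 differences belonged to loci that were near 0 in one family. Of the higher calls, 112 were at genes under 0.5 CPM in both inbred Col and inbred Ler. Of the lower calls, 223 were at genes under 0.5 CPM in both inbred C24 and inbred Ler. How many of all genes tested lay under these levels is not given here. The counts are therefore a description only, and their sizes cannot be compared. SADHU1-1, a non-coding retrotransposon, had 22.3, 24.7, 20.05 and 28.6 CPM in the Col/Ler hybrids, at most 0.0776 CPM in the C24/Ler hybrids, and 49.5 CPM in inbred Col. The pseudogenes AT4G08110, AT2G12490 and AT2G13975 had 7.61 to 9.85, 3.83 to 4.91 and 4.09 to 4.87 CPM in the Col/Ler hybrids and at most 0.0413 CPM in any C24/Ler library. In the other direction AT2G12290, an uncharacterized protein-coding locus, had 1.44, 0.892, 1.0 and 0.741 CPM in the C24/Ler hybrids and no count in the 4 Col/Ler libraries. Against a floor of 3 counts over that family (0.00924 CPM) it was at least 110.0-fold higher. AT4G07965, also uncharacterized, had 4.11 to 5.52 CPM against 0.0115 to 0.0684 CPM, and the pseudogenes AT1G42852, AT1G43387, AT2G10735 and AT4G07874 had 1.22 to 2.83 CPM against at most 0.0382 CPM. Their fitted fold changes rest on very few counts in the lower family and are not given.

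The hybrid difference followed the inbred difference in sign at most of the genes that differed between the inbreds. Inbred C24 and Col differed at 6460 genes, 21.7% of those tested, 3011 higher in C24 (10.1%) and 3449 lower (11.6%), or 4229 genes without C24 A. Of these, 94.3% had the same sign of difference between the hybrid families, against 70.3% of all genes, and 40.3% were also called between the families. Of the 3161 genes called between the families, 82.3% were called between the inbreds, 2596 in the same direction and 6 in the opposite one. The 2 comparisons share no library, but both come from 1 fit of 18 libraries and share its estimate of each gene's spread. Their calls are therefore not independent. Without Col A or Col B, 3542 or 3530 genes were called between the families. Across the genes called between the inbreds, the log2 differences of hybrids and inbreds correlated with Pearson's r = 0.883, a description across genes, which are not independent replicates.

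For 5851 genes called between the inbreds and at 1 CPM or more, the family difference divided by the half-inbred difference, both in CPM, had a median of 0.793 with quartiles of 0.492 and 1.06. For the 443 of these that differed at least 4-fold between the inbreds, the median ratio was 0.9 with quartiles of 0.743 and 1.06, 440 had the same sign in the hybrids and 395 (89.2%) were called there. The genes were chosen by their inbred difference, so a ratio below 1 also holds the part of that choice that is chance. At the 559 genes called between the families and not between the inbreds, 86.8% had the same sign in the inbreds, with a median size of 0.215 there and 0.365 in the hybrids on the log2 scale. The 6 genes called in opposite directions were DHAR1, CSLA10, NUDT24 and 3 loci of the plastid genome, which is inherited apart from the nuclear genes. NUDT24, a nudix hydrolase, differed by -26.5 CPM between the families while the half-inbred difference was 38.9 CPM, and its call was lost in 7 of the 12 leave-one-out fits (up to 0.12). Neither NUDT24 nor CSLA10 nor DHAR1 was called without LerxC24 B (0.12, 0.071 and 0.0541).

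**Figure D3:**
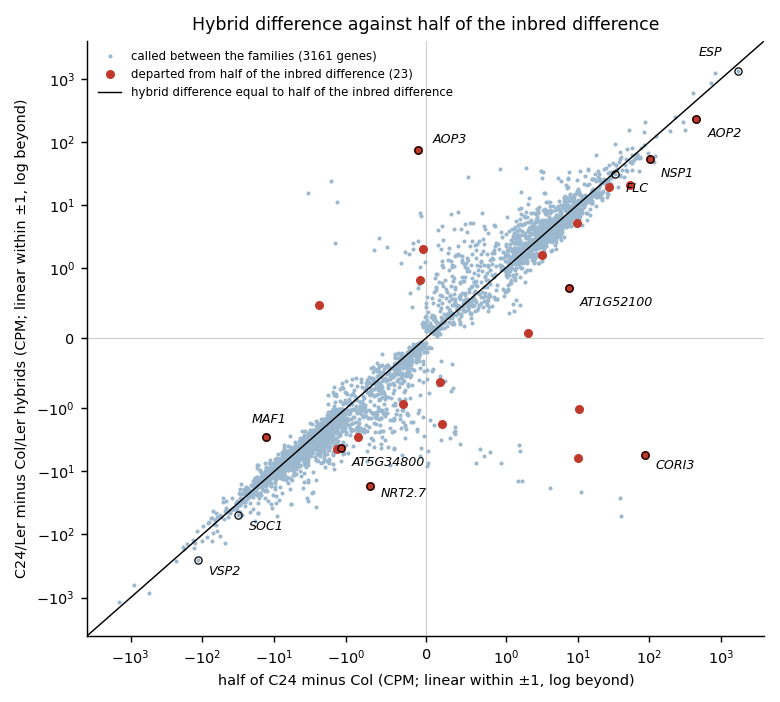
Family difference (C24/Ler minus Col/Ler hybrids) against the half-inbred difference (C24 minus Col), both in CPM, on axes linear within ±1 and logarithmic beyond, for 3161 called genes. The line marks equal values. FLC lies close to it, at 30.6 against 33.5 CPM, and 23 genes marked in red departed from it, among them AOP3, NSP1 and MAF1.

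A test of the departure itself compared, gene by gene, the level of the C24/Ler hybrids plus 0.5 times that of Col with the level of the Col/Ler hybrids plus 0.5 times that of C24, as a log2 ratio that is 0 where the family difference equals the half-inbred difference. It called 23 of 29777 genes (0.0772%), 5 above (0.0168%) and 18 below (0.0604%), and 2026 genes (6.8%) had an unadjusted p below 0.05. Above and below give the sign of the log2 ratio, not whether the family difference was larger or smaller in size. AT5G34800, at -4.28 CPM against a half-inbred difference of -1.19 CPM, was below, as was NSP1 at 52.6 against 101 CPM. MAF1, at -2.85 against -13.1 CPM, was above. Because both sides of the ratio hold inbred levels, it understates departures. Without the letter block the test called 5 genes. Leaving out 1 library gave 8 genes without LerxC24 B, 10 without C24xLer A or ColxLer A, 7 without C24xLer B or LerxCol B, 5 without ColxLer B, 14 without LerxCol A and 11 without C24 A. Of the 23, 5 were called in all 12 fits that left out 1 library: AT1G52100, AT5G34790, AT5G34795, AT5G34800 and NSP1.

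AT1G52100, annotated as a mannose-binding lectin, had 20.4 CPM in inbred C24 and 5.01 CPM in Col. It stood at 3.51, 3.7, 2.67 and 2.62 CPM in the C24/Ler hybrids and 2.33, 2.79, 2.33 and 2.19 CPM in the Col/Ler hybrids. The hybrid families overlapped and both lay near the level of Ler, 2.02 CPM. The family difference was 0.714 CPM where the half-inbred difference was 7.68 CPM (departure -1.17 ± 0.099, adjusted p = 0.000677). NSP1 had 125, 120, 117 and 106 CPM against 71.8, 70.4, 59.99 and 54.7 CPM, with 283 CPM in inbred C24 and 80.2 CPM in Col. Its family difference of 52.6 CPM, at libraries that did not overlap, was below the half-inbred difference of 101 CPM (-0.39 ± 0.043, adjusted p = 0.00301, and 0.0906 without the letter block). Set against the half-inbred difference in log2 units, the departure of NSP1 was not called (-0.04, adjusted p = 0.925).

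The neighbouring pseudogene loci AT5G34790, AT5G34795 and AT5G34800 were above the inbred Col level in the Col/Ler hybrids. AT5G34800 had 4.45, 3.77, 4.41 and 4.54 CPM in the Col/Ler hybrids against 2.48 and 2.3 CPM in the Col libraries, and AT5G34790 had 4.83, 3.84, 5.28 and 3.9 against 2.73 and 2.7 CPM. AT5G34795 had 3.19, 2.56, 3.05 and 3.18 against 1.71 and 2.03 CPM. No Col library reached any Col/Ler library at the 3 loci. The C24/Ler hybrids, C24 and Ler were all at or under 0.187 CPM there, and the departures were -1.83 ± 0.154, -1.70 ± 0.133 and -1.57 ± 0.147 (adjusted p = 0.00108 for each). In log2 units the departure of AT5G34790, which rests on almost no counts in C24, was not called (adjusted p = 1).

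MAF1, a MADS-box repressor of flowering, had 14.1, 17.58, 17.3 and 13.4 CPM in the C24/Ler hybrids and 19.4, 21.9, 16.1 and 16.4 CPM in the Col/Ler hybrids. The families overlapped and the difference was not called (-0.23, adjusted p = 0.145), although inbred C24 had 2.16 CPM and Col 28.3 CPM. The family difference of -2.85 CPM thus stood against the half-inbred difference of -13.1 CPM (departure 0.61 ± 0.083, adjusted p = 0.0209). This call was kept in 7 of the 12 leave-one-out fits (up to 0.112, and 0.00298 without LerxC24 B) and was lost without the letter block (0.0819).

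AOP3 differed by 73.3 CPM between the families where C24 and Col differed by almost nothing (departure 1.1 ± 0.152, adjusted p = 0.0364). It was called in 3 of the 12 fits, not without LerxC24 B (0.177) nor without the letter block (0.686). AOP2 differed by 232 CPM where the half-inbred difference was 453 CPM (-0.94 ± 0.131, adjusted p = 0.028). It too was called in 3 of the 12 fits, and not without LerxC24 B (0.0572) nor without the letter block (adjusted p = 1). Set against the half-inbred difference in log2 units instead, AOP2 departed in the other direction (2.63, adjusted p = 1.25e-06), since on that scale the half-inbred difference is far smaller than the hybrid difference.

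CORI3, an enzyme of the tyrosine transaminase family that responds to jasmonate, was at 116 to 203 CPM in the C24/Ler and 125 to 225 CPM in the Col/Ler hybrids while C24 had 271 CPM and Col 96.3 CPM (-0.52 ± 0.073, adjusted p = 0.0235). It was called in 6 of the 12 fits and not without the letter block (adjusted p = 1). NRT2.7, a nitrate transporter, differed by -16.9 CPM between the families with C24 and Col close to each other (42.0 and 43.4 CPM), a departure called in 2 fits (-0.31, adjusted p = 0.0353). CSLA10, a cellulose synthase-like protein, differed by -6.14 CPM where the half-inbred difference was 10.06 CPM (-0.79, 0.0364, called in 3 fits and not without LerxC24 B, nor without the letter block, where its adjusted p was 1). The pseudogenes AT1G35280 and AT2G16140 and the glycine-rich protein locus AT2G05540 departed upward (0.71, 1.56 and 0.73), and the uncharacterized locus AT5G26270 downward (-0.96), each called in 3 or 4 fits and not without LerxC24 B (adjusted p from 0.0633 to 0.0793). The remaining 8 genes departed downward by 0.40 to 1.22 on this scale and were called in 0 to 6 of the 12 fits.

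**Figure D4:**
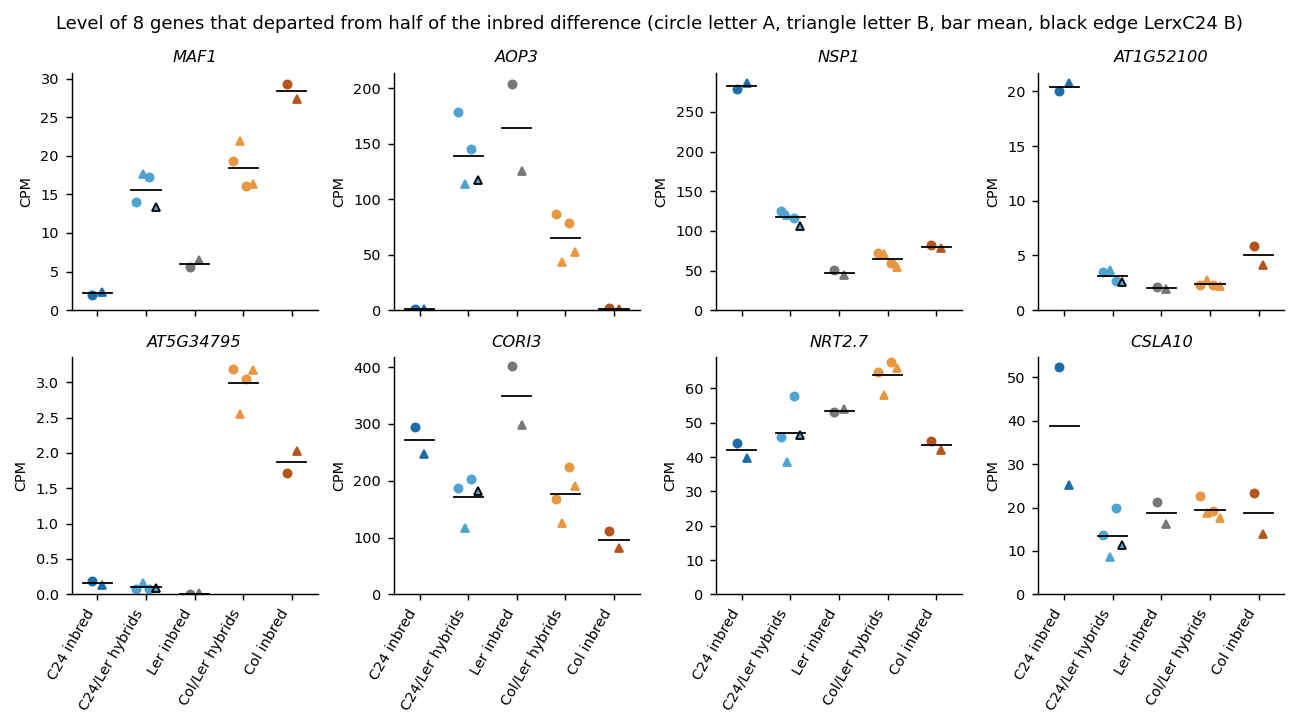
Level in CPM on a linear axis of 8 genes that departed from the half-inbred difference, in each library of the same 5 groups (circles letter A, triangles letter B, bars the mean, black edge LerxC24 B). The Col/Ler hybrids lie above inbred Col at AT5G34795, both hybrid families lie near Ler at AT1G52100, and at MAF1 the C24/Ler hybrids lie above both C24 and Ler.

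The place of Ler in the cross name was tested against the family difference, comparing C24xLer minus ColxLer with LerxC24 minus LerxCol. No gene was called by edgeR, with 1053 of 29777 genes (3.54%) at an unadjusted p below 0.05. DESeq2 called 4 genes, MBP1, AT2G04170 and the plastid loci ATCG00220 and ATCG01020. At MBP1 the 4 C24/Ler values were 14.1 and 11.6 CPM in C24xLer and 29.2 and 37.5 CPM in LerxC24, against 45.5, 46.3, 35.5 and 38.2 CPM in ColxLer and LerxCol (difference of differences -1.70, adjusted p = 0.00376 by DESeq2 and 1 by edgeR). Without LerxC24 B, 11 genes were called, and without LerxC24 A 1 gene, AT5G24740. Across the 3161 called genes the log2 differences for the 2 places of Ler correlated with r = 0.926 and across all genes tested with r = 0.778. The called genes were chosen on the mean of both differences, so the first value is a description only.

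**Figure D5:**
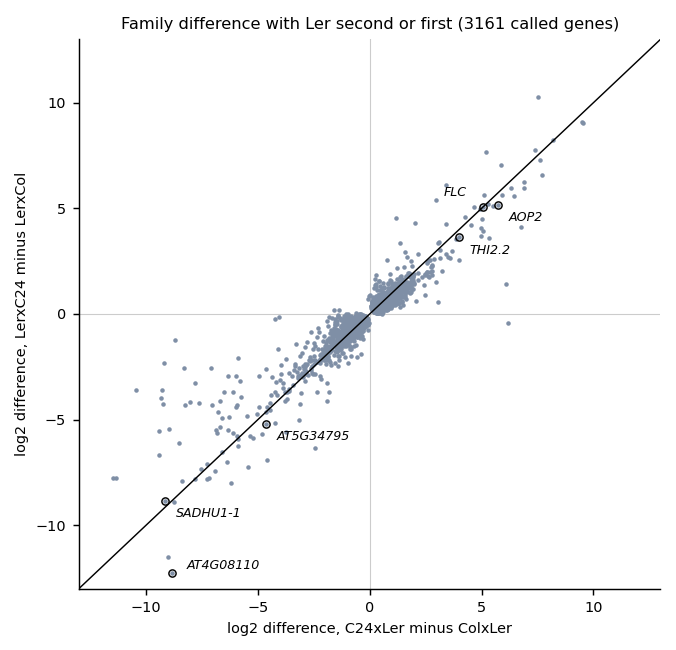
Log2 difference LerxC24 minus LerxCol against C24xLer minus ColxLer for the 3161 genes called between the families, with the line of equal values. Most points lie along the line, with means over both places of 5.07 for FLC and 5.46 for AOP2. The farthest points are of loci near 0 in one family, whose fitted folds rest on few counts.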

How the data were processed

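For the aligner, the counter and the use of strand, nothing is given in the sources used here. Per the labels' protocols, RNA was extracted with a column kit and mRNA libraries were sequenced by a service provider. Per the submitters' processing notes, TAIR10 was the genome build and FastQC was run. The deposited values are raw counts per gene, as the authors gave them, for 33321 loci in 34 libraries. Counts of accessions other than Col against a Col reference can be too low where their sequence differs, which was not tested.

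The counts of letters A and B of all 9 genotypes (18 libraries) were fitted together in edgeR 4.0.16 (R 4.3.3), with TMM scaling, 29777 genes kept by filterByExpr, robust quasi-likelihood dispersions, and genotype and replicate letter as terms, leaving 8 residual degrees of freedom. Contrasts gave the family, inbred and place-of-Ler differences, with Benjamini-Hochberg adjustment over all genes and a threshold of 0.05. The departure from the half-inbred difference was tested by the delta method in the same fit. The letters pair the libraries: deviations of same-lettered libraries from their genotype means correlated at 0.212 to 0.557 in 36 pairs of genotypes. DESeq2 1.42.0 served as an alternative, beside other scaling, no filter, no letter block, other letters and each library left out in 12 fits. The tests were also run on counts simulated from the same fitted model, with outcomes not given here. Such counts cannot show a misfit of that model to these data. P-values measure the spread between pools of seedlings.

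The members and gene lists were chosen with earlier results of these data known. Genes are named by rule: the largest log2 and CPM differences in each direction among genes called with 1 sign in all 4 matched pairs, up to 4 called members of each list, the largest departures, and FLC. Another 26 loci (1 of them not reported here), and list members given without a call, were named after their values were seen. Sequences and gene types come from RefSeq's TAIR10.1, which matched 29326 tested loci. Figures were drawn with matplotlib 3.10.9.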

Additional observations from a re-analysis of the deposited data

Results flagged for a closer look

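In groups of 4 libraries, 162 gene and family pairs were looked at for a library far from the other 3, and 8 were found, where chance gives about 1 in 20. BGLU28 stood at 9.01 CPM in LerxC24 A and at up to 20.4 CPM in the other C24/Ler libraries, which were close to each other. MAM3 stood at 26 CPM in ColxLer B and at 37.5 to 39.6 CPM in the other Col/Ler libraries. NPR3 stood at 50.6 CPM in LerxCol A against 35 to 36.1 CPM, and AT5G34800 at 3.77 CPM in ColxLer B against 4.41 to 4.54 CPM. The other 4 were at loci with almost no counts in that family. AT2G13975 had 0.0383 CPM in LerxC24 B, AT4G07874 had 0.0254 CPM in ColxLer A and AT5G34790 had 0.0138 CPM in C24xLer A, each with 0 in the other 3 libraries, and AT1G43387 had 0 in LerxCol B against 0.0115 to 0.0137 CPM.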

How the results depend on the processing

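The count of genes called between the families was 3158 with DESeq2's size factors, 3325 with DESeq2, 3124 without the filter and 3440 with the 8 hybrid libraries alone, and 2112 to 3542 when 1 library was left out. It was 1692 without the replicate block (1690 shared with the 3161), 1264 with all libraries except letter C and no block, and 5953 with C24/Ler libraries of other letters and no block, where 1586 were shared and 10 of these had the opposite sign. Those libraries carry other letters than the Col/Ler hybrids, so letter and family cannot be told apart there. Between the inbreds the count was 3949 without the block and 4229 to 6509 with 1 library left out. Departures numbered 204 against the half-inbred difference in log2 units, 5 without the block and 5 to 29 with 1 library left out. For the place of Ler, DESeq2 called 4 genes, and leaving out 1 library gave 0 to 11. Calls in the lists fell from 86 to 43 without the block and to 24 with all libraries except letter C, and were 63 to 92 with 1 library left out. Without the block, 49 of 121 single-gene results lost their call and none turned. With C24/Ler libraries of other letters the family difference turned at IAA17 (-1.33), CAT3_AT1G20620 (0.42), LHCB1.2 (-1.55), NPR1 (0.0247), GSTU20 (-0.34), LHCB2.2 (-3.035), TOE1 (-0.0134), ELF4 (1.40), BGLU28 (-1.25), GA20OX2 (-0.15) and LNK1 (-2.5). Of these only LHCB2.2 was called there (adjusted p = 0.0476). Another 35 results lost their call there, 59 kept their status and 2 gained a call. Those lost included ESP (0.23, adjusted p = 0.537), NSP1 (0.05, 0.932), NSP4 (0.27, 0.499), AOP3 (0.23, 0.667) and THI2.2 (0.75, 0.574). MAM1, IPMI1, IPMI2, IMD1, CYP79F1, CYP83A1 and MYB76 of aliphatic glucosinolate synthesis also lost their calls, and that list gave 8 higher and 2 lower calls. Glucosinolate breakdown gave 0 higher and 2 lower calls there. With all libraries except letter C the family difference turned at IAA17 (-0.31), CAT3_AT1G20620 (0.10), LHCB1.2 (-0.38), LHCB2.2 (-0.53), ELF4 (0.78) and LNK1 (-0.61). None of these was called there. Another 55 results lost their call and 46 kept their status. The same 7 genes from MAM1 to MYB76 were among those lost, and aliphatic glucosinolate synthesis gave 6 higher and 0 lower calls. Glucosinolate breakdown gave 0 calls there. The departure of AOP2 turned to 2.635 in log2 units. The cause was not tested. At 72386257 counts or more per library, loci under 0.1 CPM rest on few counts.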
